A study of Rattus norvegicus with 43 samples.

Results

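Transcripts of 6 genes of glutathione conjugation and glutathione synthesis were followed in female Sprague-Dawley rats given a retinoid: Gstm1, Gstm2, Gstp1, Gstt1, Gstt2 and Gclc. The members were all probe sets whose platform annotation names 1 of these symbols, which gave 11 probe sets of 6 genes among 8740 probe sets, controls left out, of a rat Affymetrix array that covers 4736 genes with a single symbol. Gstm1 had 3 probe sets, Gstm2, Gstp1 and Gstt2 had 2 each, and Gstt1 and Gclc had 1 each. All values are MAS5 signals, the array software's summary of probe brightness, so a level of one probe set is not set against that of another.

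Glutathione is the main small thiol of the cell, and Gclc encodes the catalytic subunit of glutamate-cysteine ligase, which carries out the rate-limiting step of its synthesis. Glutathione transferases attach glutathione to reactive electrophiles, including many carcinogens, so that they can be exported. Gstm1 and Gstm2 encode mu class subunits, Gstt1 and Gstt2 encode theta class subunits, and Gstp1 encodes the pi class subunit, which normal rat hepatocytes hold at low levels and which marks preneoplastic foci in rat liver.

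Targretin, or bexarotene, which binds the retinoid X receptors (RXR), was given by gavage (60 mg per kg of body weight). The other agents were mixed into the diet: 9cRA (9-cis retinoic acid, which binds RXR and the retinoic acid receptors) at 100 mg per kg, and 4HPR (4-hydroxyphenylretinamide, a synthetic amide of retinoic acid) at 782 mg per kg. Dosing lasted 7 days and began at 100 days of age. The reference rats had the diet alone, the labels name no gavage control, and because doses and routes differ the agents are shown side by side and not tested against each other. Normal liver, lung and mammary gland were profiled on 43 arrays in 12 groups: 4 arrays each, except 3 in all Targretin groups, in 4HPR mammary gland and in diet lung. The labels do not say which arrays came from the same rat, nor that each came from its own rat, so the p-values measure the spread between these arrays.

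Marker genes set the 3 organs apart as labelled, with hepatocyte transcripts on other organs' arrays as a reservation. All 16 hepatocyte marker genes were higher in diet liver than in diet lung, and 9 of 10 lung epithelium genes were lower. Mammary arrays showed casein transcripts, but also hepatocyte transcripts: the summed signal of the 16 genes was 10.8% to 17.6% of the diet liver mean on diet mammary arrays, and 1.26% to 6.54% on diet lung arrays. It was 4.06% to 21% on 4HPR lung arrays, where array 3 exceeded every mammary array. Targretin mammary gland 3 stood apart, with a summed skeletal muscle signal of 92052 against 3204 to 5623 on the other mammary arrays. Also set apart were diet liver 2, 4HPR liver 4 and Targretin lung 2, for which no measure is given here, and 4HPR lung 3 for its hepatocyte transcripts. Values without the first 4 of these arrays are given beside some of the results that include them.

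Sequences around the transcription start are shown for Gclc and Gstm1, which changed in liver, and for Gstp1, the classical rat liver marker. The RefSeq table (build GRCr8) matched 4 of the 6 genes, Gstt1 and Gstt2 not among them, each 250 bases before and 50 after the start. Both strands were searched for AGGTCA (a nuclear receptor half-site), TGACTCA (an AP-1 site), TGACNNNGC (an antioxidant response element core) and a direct repeat of AGGTCA spaced by 1 base. Capitals mark matches, and the windows are chr8:87510226-87510525 on the plus strand and chr2:198343334-198343633 and chr1:210769656-210769955 on the minus strand.
Gclc: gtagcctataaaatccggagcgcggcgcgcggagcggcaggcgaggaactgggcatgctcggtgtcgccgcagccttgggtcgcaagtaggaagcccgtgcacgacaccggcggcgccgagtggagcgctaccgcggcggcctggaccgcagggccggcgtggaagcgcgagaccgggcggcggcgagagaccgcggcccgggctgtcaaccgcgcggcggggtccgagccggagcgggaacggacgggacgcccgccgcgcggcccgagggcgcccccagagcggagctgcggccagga
Gstm1: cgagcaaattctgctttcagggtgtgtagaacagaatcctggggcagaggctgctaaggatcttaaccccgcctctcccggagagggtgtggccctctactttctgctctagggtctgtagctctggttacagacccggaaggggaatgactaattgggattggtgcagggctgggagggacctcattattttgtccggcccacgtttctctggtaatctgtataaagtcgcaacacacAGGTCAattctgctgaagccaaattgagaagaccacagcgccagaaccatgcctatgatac
Gstp1: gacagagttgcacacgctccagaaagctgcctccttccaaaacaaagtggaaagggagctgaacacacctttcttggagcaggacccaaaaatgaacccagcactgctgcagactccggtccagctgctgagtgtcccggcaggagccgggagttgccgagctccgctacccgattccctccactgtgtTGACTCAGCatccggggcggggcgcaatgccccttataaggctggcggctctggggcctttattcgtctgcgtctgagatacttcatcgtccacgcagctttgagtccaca
The Gstm1 window held AGGTCA at -11, a motif found in 16.2% of 33465 rat promoter windows of this length. The Gstp1 window held TGACTCA at -61 (4.63% of windows), whose letters overlap a TGACNNNGC match at the same position (12.1% of windows). The Gclc window and the Gstm2 window held none of these motifs, and the direct repeat occurred in 0.0538% of windows. A match is a description of the letters and not evidence of binding.

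On diet alone, the mu class genes and Gclc were highest in liver, while Gstp1 was lowest there. A comparison was counted as passing at a Benjamini-Hochberg adjusted p under 0.05 in limma over all probe sets tested, and differences are log2 of signal plus 38.1. In diet liver against diet lung, 9 of 11 member probe sets were higher and 2 were lower, with a median difference of 1.23 against -0.37 for all 6677 probe sets tested, of which 55.4% passed. In diet liver against diet mammary gland, 8 were higher and 3 lower, with a median of 2.74 against -0.07 for all, of which 59.4% passed. Gclc is among the higher probe sets of both pairs and was tested there only through its liver signals. In diet mammary gland against diet lung, 1 of 10 tested was higher and 5 were lower, with a median of -1.31 against -0.19 for all, of which 44.8% passed. About as many probe sets of the whole array passed as did not in these pairs, so an organ difference is common.

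Gstm1 (X04229cds_s_at) averaged 30533.3 ± 3243.8 in diet liver, 843.5 ± 342.3 in diet mammary gland and 3347.4 ± 731.5 in diet lung (SD, n = 4, 4 and 3). The liver signal was 36.3-fold that of mammary gland (adjusted p = 2.76e-19) and 9.12-fold that of lung (adjusted p = 1.74e-12). The second Gstm1 probe set, J02810mRNA_s_at, put mammary gland much closer to lung, at 3527.7 ± 184.1 against 4118.7 ± 486.8, a difference of -0.22 that did not pass (adjusted p = 0.413). For the third, H32189_s_at, liver averaged 20769.2 ± 1458.2, mammary gland 817 ± 353.5 and lung 2354.6 ± 889.4. The mu class subunits are very alike in sequence and these probe sets can match several transcripts, so the mammary level of Gstm1 is uncertain.

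Gstm2 (J02592_s_at) averaged 18088.2 ± 2250.3 in diet liver, 1583.4 ± 779.6 in diet mammary gland and 4771.5 ± 405.3 in diet lung. Its other probe set, J03914cds_s_at, gave the same order, with 13326 ± 811.7, 1382.6 ± 551.2 and 5647.8 ± 447. Every pair of organs differed for both (adjusted p from 2.11e-16 to 0.000219).

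Gstp1 ran the other way. Its probe set X02904cds_s_at averaged 1012.7 ± 87.9 in diet liver, 2441.6 ± 1349.3 in diet mammary gland and 6315.4 ± 1175.1 in diet lung, and liver was 6-fold lower than lung (adjusted p = 6.15e-12) and 2.11-fold lower than mammary gland (adjusted p = 6.66e-05). The probe set rc_AI012589_s_at gave 2296.3 ± 366.9, 5593.1 ± 2120.3 and 11740.2 ± 2816.2, with mammary gland and lung not differing past the threshold (difference -1.12, adjusted p = 0.0761). Its liver to mammary difference of -1.2 (adjusted p = 0.029) was lost with quantile normalization and without diet liver 4, diet mammary 1 or diet mammary 4 (adjusted p from 0.0743 to 0.0897). Diet mammary arrays fell into a low pair, 2 and 3 at 3438.5 and 4134.1, and a high pair, 1 and 4 at 7094.6 and 7705.2. On arrays 1 and 4 the summed lung epithelium markers were 16070.7 and 15942.1, against 4696.1 and 4867 on arrays 2 and 3; their part in the Gstp1 signal was not tested.

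Gstt1 (X67654_at) had 1679.9 ± 404.6 in diet liver, 755.1 ± 260.7 in diet mammary gland and 961.3 ± 109.3 in diet lung. Liver was 2.21-fold higher than mammary gland (adjusted p = 0.000598) and 1.69-fold higher than lung (adjusted p = 0.0322), while mammary gland and lung differed by -0.39 (adjusted p = 0.313). The liver to lung difference was lost when diet liver 3 or 4, or diet lung 3 or 4, was left out (adjusted p from 0.0537 to 0.111).

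The 2 Gstt2 probe sets disagreed on the organ order. By rc_AI138143_at, diet mammary gland was highest at 7745.7 ± 1374.8, with 3611.1 ± 528.4 in diet liver and 2150.3 ± 684.8 in diet lung, and all 3 pairs passed (adjusted p from 1.37e-08 to 0.00335). By D10026_s_at, diet liver was highest at 2915 ± 510.2, with 1887.6 ± 91.2 in mammary gland and 1593.5 ± 156.1 in lung. The pair correlated at r = 0.529 over 43 arrays, whereas the probe sets of Gstm1 correlated at 0.921 to 0.98, those of Gstm2 at 0.958 and those of Gstp1 at 0.783; these arrays share organs and the values are descriptive.

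Gclc (J05181_at) was readily measured in diet liver alone. Its signal was 1448.8 ± 418.3 in diet liver, 190.7 ± 32.7 in diet lung and 21.9 ± 4.6 in diet mammary gland. Signals above the array's own 40th percentile occurred on 4 of 4 diet liver arrays, 0 of 3 diet lung arrays and 0 of 4 diet mammary arrays, so Gclc was not tested against diet in lung and mammary gland. Its pairs with liver were tested only because its liver signals passed this percentile, so its calls there are no support of their own. No size is given for liver against lung because the lung signals were this low.

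**Figure D1:**
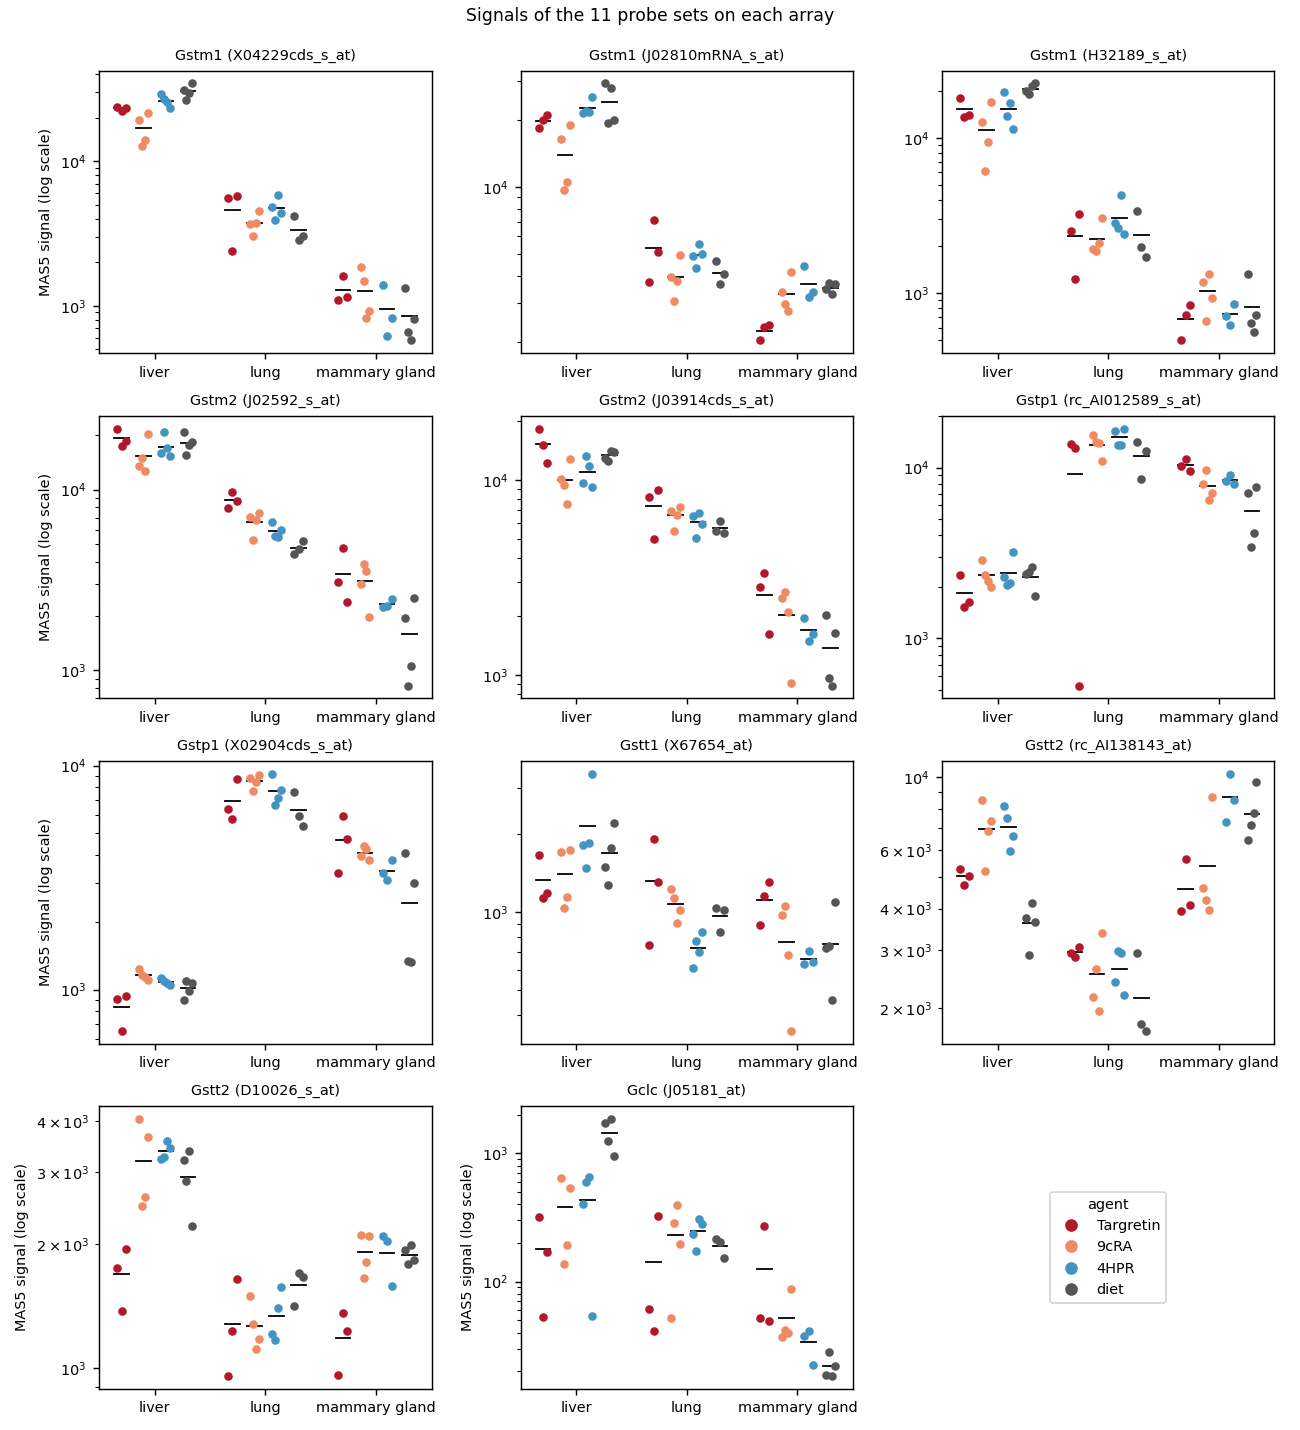
MAS5 signal (log axis) of each of the 11 member probe sets on each of the 43 arrays, grouped by organ, with points for arrays and a bar for the group mean. Gstm1, Gstm2 and Gclc are highest in liver, Gstp1 is lowest there, and the Gstp1 probe set rc_AI012589_s_at has a single Targretin lung array at 527.

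In liver, Gclc was the member with the largest change. Its signals were 319.4, 52.7 and 169.6 with Targretin, 644.4, 136.9, 192.2 and 539.9 with 9cRA, and 405.4, 598.6, 659.2 and 53.5 with 4HPR, against 1730.7, 1255.1, 1854.2 and 955.2 on diet. No treated array reached the lowest diet array, and the treated arrays overlapped each other widely. The 3 comparisons share the diet arrays. Gclc fell by 2.93 on the log2 scale with Targretin (SE 0.635, 95% interval -4.27 to -1.59, adjusted p = 0.00542), a fall that passed in each of the 14 alternatives. Changes of -2.02 with 9cRA (SE 0.588, adjusted p = 0.0565) and -1.97 with 4HPR (SE 0.588, adjusted p = 0.0818) did not pass. The 9cRA change passed in 6 of 15 alternatives, among them array weights (adjusted p = 0.00878) and the fit of only the 2 groups (adjusted p = 0.00942), and the 4HPR change in 1, a pseudocount 4 times larger (adjusted p = 0.043). Without diet liver 2 and 4HPR liver 4, the 4HPR change was -1.36 (adjusted p = 0.197). The size of the Targretin change depends on the added constant, and was -2.31 with a constant 4 times larger (adjusted p = 0.00194). The treated signals were low on the array: 1 of 3 Targretin arrays, 2 of 4 9cRA arrays and 3 of 4 4HPR arrays were above their own 40th percentile. Only 1 probe set measured this gene, and in this bulk tissue fewer cells of a type and less RNA per cell cannot be told apart.

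Gclm, the modifier subunit of the same enzyme, did not share this pattern as a call. Its signal averaged 1013.4 ± 246.2 with Targretin against 1558 ± 192.7 on diet (change -0.62, adjusted p = 0.122), 1650 ± 285.5 with 9cRA (0.07, adjusted p = 0.92) and 1611.4 ± 568.3 with 4HPR (-0.01, adjusted p = 0.982). Gss, which encodes glutathione synthetase, had changes of -0.13, -0.13 and -0.16 in the 3 agents and passed in none (adjusted p from 0.706 to 0.775).

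Gstm1 fell with 9cRA in all 3 of its probe sets. By X04229cds_s_at the signals were 19398.2, 12773.5, 13949.7 and 21386 with 9cRA against 31122.6, 26646.1, 29872.3 and 34492.1 on diet. The groups did not overlap, and arrays 2 and 3 were the lowest of the 9cRA set. The fall was 0.543-fold (log2 change -0.88, SE 0.149, adjusted p = 0.00287) and passed in each of the 15 alternatives. J02810mRNA_s_at fell by 0.82 (adjusted p = 0.018) and H32189_s_at fell by 0.97 (adjusted p = 0.0224). These last 2 lost the threshold in 4 and 5 of 15 alternatives, all of them leaving out 1 array, with adjusted p up to 0.067 and 0.0694; the arrays were 9cRA 2 and 3 and diet 1 and 3 for both, and diet 4 for H32189_s_at. Without diet liver 2 the 3 changes were -0.94, -0.92 and -1.01.

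With Targretin and 4HPR no Gstm1 probe set passed in liver. For X04229cds_s_at the Targretin signals were 23889.5, 22357.8 and 23378, below all 4 diet arrays (change -0.39, adjusted p = 0.139), and the 4HPR mean was 26246 ± 2314.2 (change -0.22, adjusted p = 0.459). Gstm2, the other mu class member, passed with no agent in liver: its J02592_s_at changes were 0.09 with Targretin, -0.25 with 9cRA and -0.07 with 4HPR, and those of J03914cds_s_at were 0.17, -0.45 and -0.29.

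Gstt2 rose with 9cRA and 4HPR by 1 of its 2 probe sets. The rc_AI138143_at signals were 8500.1, 5191.8, 6848.8 and 7374.3 with 9cRA, and 8149.3, 7490.1, 5971.1 and 6641.3 with 4HPR, against 3747.9, 2895.7, 4164.6 and 3636.1 on diet. Every treated array lay above every diet array. The rises were 1.91-fold with 9cRA (log2 change 0.93, SE 0.157, adjusted p = 0.0028) and 1.95-fold with 4HPR (log2 change 0.96, SE 0.157, adjusted p = 0.00377), and both passed in each of their 15 alternatives. With Targretin the signals were 5281.6, 4729 and 5024.8, also above all diet arrays, but the change of 0.48 did not pass (adjusted p = 0.0828).

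The other Gstt2 probe set, D10026_s_at, gave another picture. It changed by 0.12 with 9cRA (adjusted p = 0.784) and by 0.22 with 4HPR (adjusted p = 0.532), and with Targretin it fell to 1753.2, 1379 and 1945.3, against 3204.8, 2855.4, 3377.3 and 2222.5 on diet. That fall was 0.587-fold (log2 change -0.77, SE 0.191, adjusted p = 0.0134) and was lost without Targretin liver 2 (adjusted p = 0.0914). A direction for Gstt2 in Targretin liver is therefore not settled by these 2 probe sets.

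Gstp1 and Gstt1 passed with no agent in liver. Gstp1 (X02904cds_s_at) had 911.4, 655.1 and 932.5 with Targretin, 1103 to 1236.4 with 9cRA and 1050.6 to 1127.7 with 4HPR, against 902.3 to 1098 on diet. The changes were -0.28, 0.19 and 0.1. Gstt1 changed by -0.33, -0.26 and 0.29, and its highest liver signal, 3399.1, was on 4HPR liver 4, one of the arrays that stood apart.

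**Figure D2:**
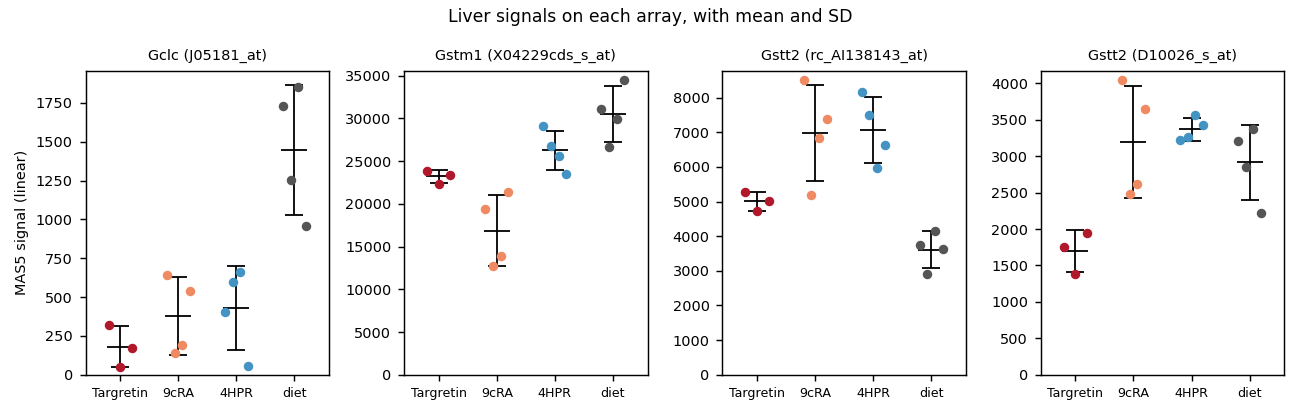
Liver MAS5 signal (linear axis from 0) of Gclc, Gstm1 (X04229cds_s_at) and both Gstt2 probe sets on each array, with mean and SD for Targretin, 9cRA, 4HPR and diet. Gclc is below all diet arrays in every agent group, Gstm1 is lowest with 9cRA, and the Gstt2 probe sets differ in their Targretin group.

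Counted over all 11 member probe sets, 0 were higher and 2 lower with Targretin in liver, where 11.1% of 6084 probe sets passed. With 9cRA 1 was higher and 3 were lower, and 5.16% of all passed. With 4HPR 1 was higher and 0 were lower, and 2.78% of all passed. The medians of the 11 changes were -0.33, -0.26 and -0.06, beside -0.02, -0.01 and -0.1 for all probe sets. The 3 Gstm1 calls are 1 gene, so by gene the counts were 2, 2 and 1 of 6.

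The pathway around the members showed scattered changes in liver, where 11.1% of all probe sets passed with Targretin, 5.16% with 9cRA and 2.78% with 4HPR. These shares apply to each liver list below. Of the genes of glutathione synthesis and turnover, 17 were tested. With Targretin 1 rose and 1 fell: Bhmt, which remethylates homocysteine, rose by 1.22 (adjusted p = 0.000195), and Cdo1, which oxidises cysteine, fell by 0.86 (adjusted p = 0.00258). With 9cRA 2 rose and 1 fell: Gnmt, a glycine methyltransferase, rose by 1.37 (adjusted p = 0.000151), Bhmt rose by 0.84 (adjusted p = 0.00695), and Csad, an enzyme of taurine synthesis, fell by 1.17 (adjusted p = 0.0142). With 4HPR 4 rose and 0 fell, Csad by 1.68 (adjusted p = 0.00352), Bhmt by 0.83 (adjusted p = 0.0105), Slc3a2, a subunit of amino acid transporters, by 0.83 (adjusted p = 0.0176) and Gnmt by 0.78 (adjusted p = 0.00988). Csad averaged 669.7 ± 205.9 with 9cRA and 5099.3 ± 1525.4 with 4HPR, against 1548.6 ± 432.8 on diet. Medians of the list were -0.07 with Targretin, 0.07 with 9cRA and 0.12 with 4HPR.

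Among 11 other glutathione transferases tested in liver, Targretin raised 1, Gstm7, a mu class gene, by 0.77 (adjusted p = 0.0152), and lowered 1, Gsto1, an omega class gene, by 0.63 (adjusted p = 0.0188). None of the 11 passed with 9cRA or 4HPR in limma, in fits where 1176 and 1142 of 6084 probe sets had an unadjusted p under 0.05. The alpha class gene Gsta1 averaged 35025.5 ± 4617.5 with 9cRA against 26980.7 ± 2707.1 on diet (change 0.37, adjusted p = 0.079).

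Of 12 peroxidases, reductases and glutaredoxins, 3 fell with Targretin: Gsr, which regenerates reduced glutathione, by 0.76 (adjusted p = 0.0103), Hagh, a glyoxalase, by 0.61 (adjusted p = 0.019) and Txnrd1, a thioredoxin reductase, by 0.54 (adjusted p = 0.0367). With 9cRA 2 fell, Txnrd1 by 0.6 (adjusted p = 0.0222) and Hagh by 0.59 (adjusted p = 0.0265), and with 4HPR none of the 12 passed. Of 5 genes tested in a list for export of glutathione conjugates, 2 fell with Targretin, 1 with 9cRA and 1 with 4HPR. Abcc2, which exports glutathione conjugates into bile, fell by 0.81 with Targretin (adjusted p = 0.0222) and by 0.95 with 9cRA (adjusted p = 0.0113), and changed by -0.52 with 4HPR (adjusted p = 0.179). Slco1a1, a transporter gene of the same list, fell by 0.83 with Targretin (adjusted p = 0.0063) and by 0.7 with 4HPR (adjusted p = 0.0355).

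Of 20 NRF2 target genes, which respond to electrophiles, 4 rose and 3 fell with Targretin, 0 rose and 5 fell with 9cRA, and none passed with 4HPR. Nfe2l2, the gene of NRF2 itself and counted in this list, fell by 1.29 with Targretin (adjusted p = 0.002), while the lipogenic enzyme Me1 rose by 1.91 (adjusted p = 7.51e-05). With 9cRA Ugt2b1, a glucuronosyltransferase, fell by 0.84 (adjusted p = 0.0104), and Ephx1, the microsomal epoxide hydrolase, fell by 0.68 (adjusted p = 0.0406). The lists overlap: the 9cRA falls here include Txnrd1 and Abcc2, given above, and Ugt2b1 is counted again among the CAR and PXR targets. Of 13 target genes of CAR and PXR, 5 rose and 1 fell with Targretin. The fall had the smallest adjusted p: Cyp3a18 averaged 315.4 ± 100.3 against 1264.1 ± 154.3 on diet (change -1.917, adjusted p = 2.26e-05). Among the rises was Cyp2b2, at 32612.1 ± 10414.7 against 2034.8 ± 236.6 on diet (change 3.93, adjusted p = 0.000266). In the same list 3 rose and 2 fell with 9cRA, and 3 rose and 0 fell with 4HPR. The falls with 9cRA were Ugt2b1 and Cyp3a18, the latter with a change of -1.045 (adjusted p = 0.00739). Cyp3a9 rose with both, by 0.89 with 9cRA (adjusted p = 0.00513) and by 1.1 with 4HPR (adjusted p = 0.00352). Whether the agents differ in this list was not tested.

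Markers of other cell types also differed in liver, where 11.1% of all probe sets passed with Targretin, 5.16% with 9cRA and 2.78% with 4HPR. Among 8 markers of macrophages and antigen presentation, 4 fell with Targretin, and the summed signals of the list were 14663 to 19223 against 24566 to 27220 on diet. Of the same 8, 2 fell with 9cRA, with sums of 18369 to 29943, and 2 with 4HPR, with sums of 20273 to 23736, below every diet array. With Targretin the summed smooth muscle and stroma markers were 29615 to 34901 against 17004 to 21021 on diet. There 1 of 10 tested genes rose, while the median change was -0.41 beside -0.02 for all probe sets. The erythroid sums were 18876 to 34486 against 39604 to 68281, with 0 of 5 passing and a median change of 0.21. In both lists the sum and the median went opposite ways. Of 16 hepatocyte markers 1 fell with Targretin, and the sums were 636532 to 819842 against 661379 to 775077. With 9cRA 5 hepatocyte markers rose and 2 fell, and the sums were 888122 to 1033754. The part of these in the member changes was not tested.

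**Figure D3:**
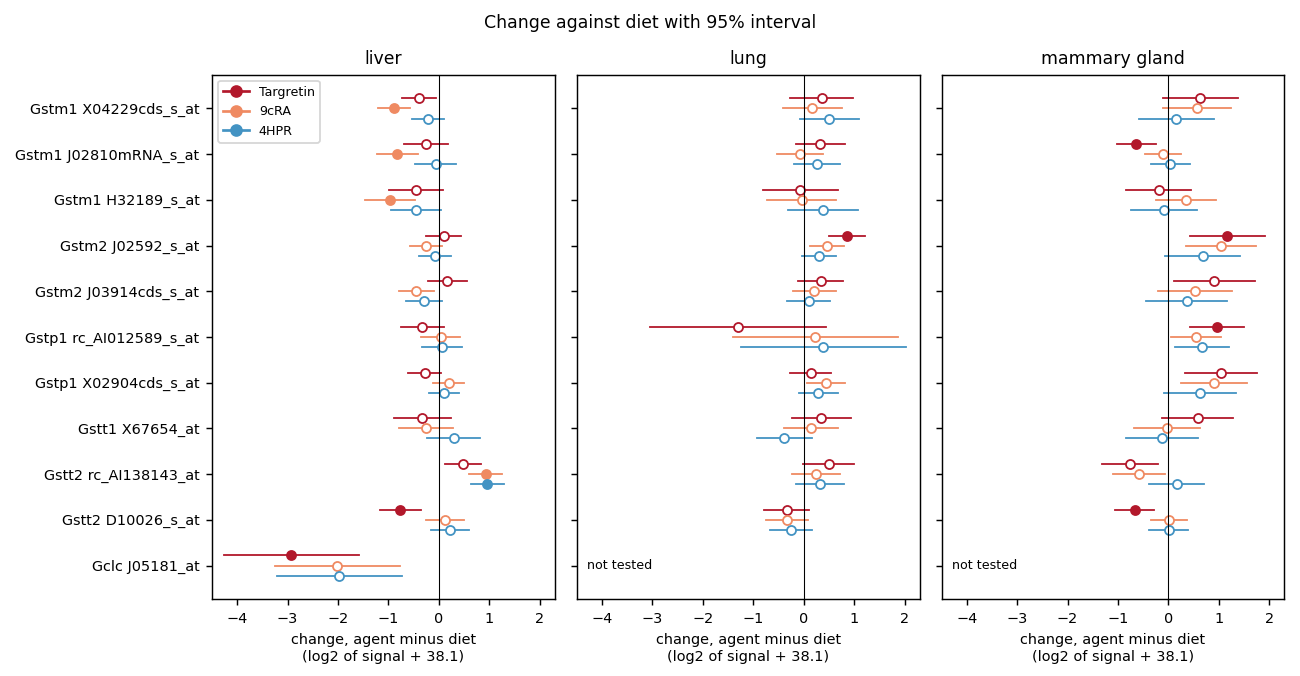
Change of each member probe set against diet (x axis, log2 of signal plus 38.1) with its 95% interval, by organ and agent, with filled points for changes that passed. Liver holds the Gclc, Gstm1 and Gstt2 calls, lung 1 call for Gstm2, and mammary gland 4 calls with Targretin.

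In lung, 1 member probe set passed and only with Targretin. Gstm2 (J02592_s_at) had 7895.6, 9644.5 and 8635.9 with Targretin against 4406.8, 4699.9 and 5207.9 on diet, with no overlap. The rise was 1.82-fold (log2 change 0.86, SE 0.166, adjusted p = 0.0269), in a comparison where 2.39% of 5935 probe sets passed. It was lost in 5 of 13 alternatives: with the replicate block (adjusted p = 0.0939), with only the 2 groups compared (adjusted p = 0.186), and without Targretin lung 1, diet lung 3 or diet lung 4 (adjusted p from 0.0504 to 0.125). Without Targretin lung 2, the array in doubt, the change was 0.79 (adjusted p = 0.0291). The second Gstm2 probe set, J03914cds_s_at, had 8136.7, 4984.1 and 8909.5 against 5437.7, 6161.2 and 5344.6 on diet, which overlap (change 0.34, adjusted p = 0.346).

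With 9cRA and 4HPR, 0 of 5935 probe sets passed in lung in limma, 0% in each, where 656 and 273 had an unadjusted p under 0.05; with array weights 964 and 398 passed. Gstm2 (J02592_s_at) had 5271.3 to 7462.1 with 9cRA and 5441.2 to 6622.2 with 4HPR, all above the 3 diet arrays, with changes of 0.46 (adjusted p = 0.372) and 0.3 (adjusted p = 1). Gstp1 (X02904cds_s_at) had 7735 to 9051.5 with 9cRA against 5364.5 to 7629.1 on diet (change 0.44, adjusted p = 0.396). Medians of the 10 member changes were 0.33 with Targretin, 0.19 with 9cRA and 0.3 with 4HPR, beside 0.06, 0.07 and -0.003 for all.

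The Gstp1 probe sets parted on 1 lung array. Targretin lung 3 had 527 for rc_AI012589_s_at, while Targretin lung 1 and 2 had 13784.2 and 13107.5 and diet lung had 8599.7 to 14041.1. For X02904cds_s_at the same array had the highest signal of its group, 8758.9 against 6386.9 and 5798.2. With that array the rc_AI012589_s_at change was -1.3 (adjusted p = 0.346), and without it 0.23 (adjusted p = 0.518).

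Gclc in lung had 60.7, 41.3 and 323.9 with Targretin, 52.2 to 396.7 with 9cRA and 173.4 to 309.8 with 4HPR, against 153.2 to 213.6 on diet, and 1 of these 14 arrays was above its own 40th percentile. Of the other glutathione transferases 1 of 12 fell with Targretin, Gsta1 by 0.92 (adjusted p = 0.0439), and of the synthesis and turnover genes 1 of 17, Anpep, a membrane aminopeptidase that cleaves glutathione fragments, fell by 0.67 (adjusted p = 0.0452). Hepatocyte marker sums were 12481 to 13934 with Targretin against 9146, 10692 and 47476 on diet, and 2 of 6 erythroid markers rose. The hepatocyte sums were 17424 to 23999 with 9cRA and 29479 to 152549 with 4HPR, where the median change of 14 tested markers was 1.89 and none passed. Without 4HPR lung 3 the change of Gstm2 (J02592_s_at) with 4HPR was 0.34, and 0 member probe sets passed. The part of these transcripts in the lung changes was not tested.

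In mammary gland, Targretin alone gave calls, 2 higher and 2 lower of 10 member probe sets, where 13.1% of 6059 passed. Gstp1 (rc_AI012589_s_at) had 10280.7, 11228 and 9511.6 with Targretin against 7094.6, 3438.5, 4134.1 and 7705.2 on diet, without overlap, a rise of 1.95-fold (log2 change 0.96, SE 0.253, adjusted p = 0.0237). Gstm2 (J02592_s_at) had 3094.3, 4747.9 and 2395.6 against 1953.2, 822.9, 1060.4 and 2497, which overlap at 1 diet array, a rise of 2.24-fold (log2 change 1.17, SE 0.349, adjusted p = 0.04). The second probe sets moved alike without passing, by 1.05 for Gstp1 (adjusted p = 0.0504) and by 0.91 for Gstm2 (adjusted p = 0.115). This second Gstp1 probe set, X02904cds_s_at, passed with quantile normalization, a larger pseudocount and array weights, and without Targretin mammary 1, diet mammary 1 or diet mammary 4 (adjusted p from 0.00857 to 0.0483). These alternatives do not speak for the called probe set rc_AI012589_s_at. The diet arrays 2 and 3 were the low ones in all 4 cases.

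The lower calls in Targretin mammary gland were Gstm1 and Gstt2. Gstm1 (J02810mRNA_s_at) had 2038.4, 2337.3 and 2392.2 against 3463, 3698.6, 3297.6 and 3651.7 on diet, a 0.642-fold level (log2 change -0.64, SE 0.182, adjusted p = 0.0332). The other Gstm1 probe sets changed by 0.64 (X04229cds_s_at, adjusted p = 0.226) and -0.2 (H32189_s_at, adjusted p = 0.702), so the 3 disagree in sign. Gstt2 (D10026_s_at) had 962.6, 1358.6 and 1229.1 against 1940.1, 1795.2, 1987.6 and 1827.3, a 0.629-fold level (log2 change -0.67, SE 0.182, adjusted p = 0.0269). Gstt2 (rc_AI138143_at) had 3946.1, 5662 and 4106.8 against 6441.4 to 9644 on diet, again with no overlap (change -0.76, adjusted p = 0.0621).

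Each of these 4 calls was lost in 7 to 9 of 14 alternatives. Targretin mammary 3 is the only mammary array in doubt, so the fit without it is counted again among the 14. With only the 2 groups compared none of the 4 passed (adjusted p from 0.0524 to 0.0831). With the replicate block the Gstm1, Gstm2 and Gstt2 changes were -0.605, 1.19 and -0.69 and did not pass (adjusted p from 0.054 to 0.0687). All 4 were lost without Targretin mammary 1, diet mammary 2 or diet mammary 3 (adjusted p from 0.0562 to 0.112), 3 of them without Targretin mammary 2 (0.0809 to 0.166), and Gstm1 also without diet mammary 4 (0.0567). Gstm2 was lost with no filter on low values (adjusted p = 0.0522). Without Targretin mammary 3 the Gstm1, Gstp1 and Gstt2 changes were -0.68, 1.02 and -0.7, with adjusted p of 0.0648, 0.0531 and 0.0604. Gstm2 still passed without that array, with a change of 1.39 (adjusted p = 0.0478).

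The hepatocyte transcripts on mammary arrays moved with the same comparison. Their summed signal was 17167, 44290 and 11849 with Targretin against 128056, 112620, 110141 and 78153 on diet, and 14 of 16 hepatocyte markers fell, with a median of -2.67 beside 0.11 for all probe sets. As a share of the diet liver mean this was 1.63% to 6.1% with Targretin, 6.49% to 17.3% with 9cRA, 9.41% to 17.8% with 4HPR and 10.8% to 17.6% on diet. Gstm1 by J02810mRNA_s_at stood at 8.42% to 9.88% of its diet liver mean with Targretin and 13.6% to 15.3% on diet mammary arrays, while by X04229cds_s_at it stood at 3.58% to 5.28% and 1.88% to 4.38%. Gstp1 (rc_AI012589_s_at) stood at 414% to 489% of its diet liver mean with Targretin and 150% to 336% on diet, and Gstt2 (rc_AI138143_at) at 109% to 157% and 178% to 267%. Other marker sums did not overlap between Targretin and diet either: those of mammary epithelium were 267800 to 433170 against 167060 to 259138, with 0 of 13 genes passing, and those of smooth muscle and stroma were 256911 to 274100 against 340535 to 383131, where 1 of 11 genes fell. The part of these transcripts in the member changes was not tested.

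**Figure D4:**
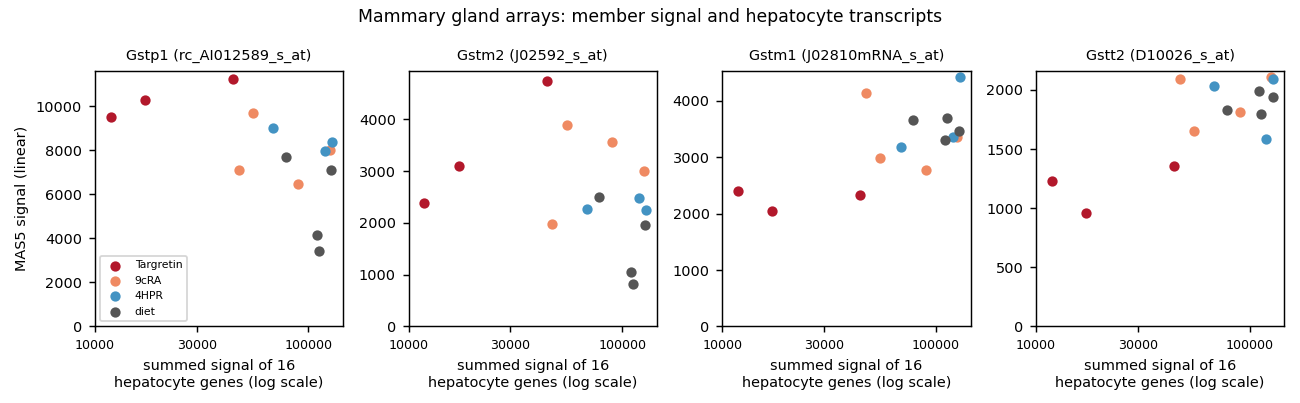
Mammary gland arrays: MAS5 signal (linear axis from 0) of Gstp1, Gstm2, Gstm1 and Gstt2 against the summed signal of 16 hepatocyte genes on the same array (log axis), coloured by agent. The 3 Targretin arrays hold the 3 lowest hepatocyte sums, from 11849 to 44290.

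With 9cRA and 4HPR, 0 of 6059 probe sets passed in mammary gland in limma, 0% in each, where 1130 and 180 had an unadjusted p under 0.05, and with array weights the count was also 0. Leaving out 1 array gave 0 to 147 calls with 9cRA and 0 with 4HPR. Gstm2 (J02592_s_at) had 1984.6 to 3897.3 with 9cRA (change 1.05, adjusted p = 0.15) and 2246.2 to 2481.9 with 4HPR (change 0.68, adjusted p = 0.999), against 822.9 to 2497 on diet. Gstp1 (X02904cds_s_at) had 3792.3 to 4391.8 with 9cRA and 3071.8 to 3785 with 4HPR, against 1330.3 to 4093.2 on diet. Gclc had 51.8, 272.5 and 49.5 with Targretin, 37.3 to 87.1 with 9cRA and 22.5 to 41.5 with 4HPR, against 18.4 to 28.2 on diet, below the 40th percentile on every mammary array.

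Some related genes passed with Targretin in mammary gland beside the hepatocyte transcripts, in a comparison where 13.1% of 6059 probe sets passed. Counts in lists this short are given as description. Among 17 synthesis and turnover genes 3 rose and 1 fell. Gss rose by 0.98 (adjusted p = 0.00511), Ggt5, a gamma-glutamyl transferase, rose by 1.73 (adjusted p = 0.00417), Mat2a, a methionine adenosyltransferase, rose by 1.19 (adjusted p = 0.0467), and Bhmt, an enzyme abundant in liver, had a change of -2.925 (adjusted p = 0.00151). Among 12 other transferases Mgst3, a microsomal one, rose by 1.07 (adjusted p = 0.0288), Gstm5 rose by 0.9 (adjusted p = 0.0349) and Gsta1 fell by 0.87 (adjusted p = 0.00741). Gpx4, which reduces lipid peroxides, rose by 1.86 (adjusted p = 0.0198) and Gsr rose by 0.95 (adjusted p = 0.0267), 2 of 12 in that list. In the CAR and PXR list 5 of 12 fell, among them the liver enzymes Cyp2c7 by 6.2 (adjusted p = 1.73e-05) and Cyp2c6v1 by 5.1 (adjusted p = 2.98e-06).

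Whether a change differed between organs was tested directly with a moderated F test over 43 arrays. For Targretin 13.3% of 5120 probe sets passed, and 2 of 10 member probe sets did. Gstt2 (rc_AI138143_at) changed by 0.48, 0.5 and -0.76 in liver, lung and mammary gland (F = 10.1, adjusted p = 0.00629), which passed in each of 26 alternatives. The other Gstt2 probe set, D10026_s_at, did not pass (F = 1.36, adjusted p = 0.493), so this is a result of a single probe set. Gstp1 (X02904cds_s_at) changed by -0.28, 0.14 and 1.05 (F = 8.06, adjusted p = 0.0161), which was lost without Targretin mammary 2, diet mammary 2 or diet mammary 3 and without the 4 arrays in doubt (adjusted p from 0.054 to 0.0784).

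For 9cRA 0.371% of 5120 probe sets passed, and 1 member was among them. Gstt2 (rc_AI138143_at) changed by 0.93, 0.25 and -0.58 in the same order of organs (F = 13.4, adjusted p = 0.031), a call lost in 9 of 29 alternatives: with quantile normalization (adjusted p = 0.0885), and without 9cRA liver 1 or 3, 9cRA mammary 1 or 2, diet liver 2, 3 or 4, or diet mammary 3 (adjusted p from 0.0509 to 0.0756). Gstt2 by D10026_s_at did not pass (F = 1.71, adjusted p = 0.667). Gstm1 (X04229cds_s_at) changed by -0.88, 0.17 and 0.56 and did not pass (F = 8.14, adjusted p = 0.109). For 4HPR 0% passed in limma, and the smallest unadjusted p among the members was 0.028, for Gstt2 (rc_AI138143_at).

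Genes with the most similar group means were listed for each member by Pearson's r over 12 group means. The candidates were 3632 probe sets with a single gene symbol, members left out, whose mean log2 signal was above the median. Each member was represented by its probe set with the highest mean signal. For Gstt2 this was rc_AI138143_at, so its values do not speak for D10026_s_at. Gstm1 was nearest to Prodh2 (r = 0.985) and Akr7a3 (r = 0.983), Gstm2 to Cyp51 (r = 0.978) and Pebp1 (r = 0.975), and Gstp1 to Ap3m1 (r = 0.973) and Ankfy1 (r = 0.965). Gstt1 was nearest to Oplah (r = 0.914) and Car5a (r = 0.91), Gstt2 to Ndufab1 (r = 0.913) and Pdk1 (r = 0.907), and Gclc to Lman1 (r = 0.956) and Fkbp4 (r = 0.937). With the organ mean taken out, the nearest were Oas1a for Gstm1 (r = 0.886), Mgll for Gstm2 (r = 0.961), Lcn2 for Gstp1 (r = 0.931), Paxx for Gstt1 (r = 0.844), Sult1c3 for Gstt2 (r = 0.915) and Cd74 for Gclc (r = 0.932). The 12 means share organs and diet arrays, so these values describe the patterns and carry no test.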

How the data were processed

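RNA of 43 samples was measured on 1 Affymetrix rat array each. Intensity values are MAS5 signals deposited by the authors, per the submitters' processing notes, on a linear scale; the sources used here give no software version. The 2% trimmed mean was 1501.78 to 1503.29 on every array, so no scaling was added. Of 8799 probe sets 59 controls were left out, and 3 values were 0. Precision is limited by the number of arrays.

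Signals were taken as log2 of signal plus 38.1 (the 10th percentile). Testing within an organ required a signal above the array's 40th percentile on at least 3 arrays: 6084 in liver, 5935 in lung, 6059 in mammary gland. Each organ was fitted with limma 3.58.1 in R 4.3.3 (eBayes with trend, all 4 groups). Diet organ pairs and organ differences came from 1 fit of 43 arrays. The Benjamini-Hochberg adjustment covered all probe sets tested. The procedure was tested on simulated data. Members and gene lists were chosen with earlier results of these data known. Named genes were drawn from up to 4 passing genes per list and comparison, by smallest adjusted p, and not all of these are named. Those left out include Tkt and Aldh1a1, which rose in Targretin liver, and Cbr1, which rose in Targretin mammary gland. Gclm, Gss, Gsta1 and Abcc2, where not passing, were named after their values were seen. Same-numbered arrays were not paired: their deviations had median correlations of -0.000861 (liver), 0.0256 (lung) and 0.0124 (mammary gland) within organs. Across organs of 1 agent they were 0.0922 (Targretin, 4 of 9 pairs over 0.1), 0.106 (9cRA, 6 of 12), 0.0333 (4HPR, 3 of 10) and -0.0288 (diet, 1 of 10). Alternatives were quantile normalization, no filter, a pseudocount 4 times larger, array weights, a replicate block, only the 2 groups compared, leaving out each array, and leaving out the 4 arrays that stood apart. Against diet in lung and mammary gland the last repeats the fit without Targretin lung 2 or without Targretin mammary 3.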

Additional observations from a re-analysis of the deposited data

Results flagged for a closer look

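In all, 3 member values stood apart within groups of 4 arrays, because the gap to the next array took most of the group's range, among 77 groups tested; chance gives about 1 in 20. Gstm1 (J02810mRNA_s_at) had 25557.3 on 4HPR liver 4 against 21695.6 to 22122.1 on the other arrays. Gstt2 (rc_AI138143_at) had 8698.7 on 9cRA mammary 4 against 3972.3 to 4620.9, and Gclc had 87.1 on the same array against 37.3 to 42.3. Changes that differed between organs by the F test in limma were Gstp1 (X02904cds_s_at) with Targretin (adjusted p = 0.0161), Gstt2 (rc_AI138143_at) with Targretin (adjusted p = 0.00629) and Gstt2 (rc_AI138143_at) with 9cRA (adjusted p = 0.031). By the same test, Gstt2 D10026_s_at passed with neither Targretin nor 9cRA (adjusted p = 0.493 and 0.667). Gstp1 rc_AI012589_s_at did not pass with Targretin (adjusted p = 0.0961).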

How the results depend on the processing

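Of 12 member calls against diet, 4 passed in every alternative run: Gclc with Targretin, Gstm1 (X04229cds_s_at) with 9cRA, and Gstt2 (rc_AI138143_at) with 9cRA and with 4HPR, all in liver. No called member changed sign. The cause of the changes below was not tested.

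Array weights gave 483 calls for 9cRA and 443 for 4HPR in liver, 697 for Targretin, 964 for 9cRA and 398 for 4HPR in lung (2 members each), 1308 for Targretin in mammary gland (7 members), and organ differences of 184 for 9cRA and 189 for 4HPR, with 5 members for Targretin and 5 for 9cRA. A larger pseudocount gave 2 members for 4HPR in liver and 8 organ differences for 9cRA. Without the filter, 9cRA had 1 call in lung and 9 organ differences. With quantile normalization 9cRA had 4 organ differences (0 members) and 4HPR had 2, and the median of all probe sets moved to -0.0715 in diet liver against lung (-0.371 without it), 0.0244 in diet mammary gland against lung (-0.187 without it), 0.011 with Targretin in mammary gland (0.111 without it) and -0.00293 with 4HPR in liver (-0.105 without it). With the replicate block, Targretin had 0 calls in lung (0 members) and 1 member in mammary gland. Within an organ this block was the array number. For the organ differences it joined arrays of the same agent and number across organs (estimated correlation 0.0732), and gave 40 for 9cRA and 1 for 4HPR. The labels do not say whether such arrays share a rat, so the block is not known to be a pairing. With only the 2 groups compared, Targretin had 0 calls in lung (0 members) and 0 members in mammary gland, and 9cRA had 1 call in lung. Without the 4 arrays that stood apart, Targretin had 409 calls in mammary gland (1 member) and 9cRA had 34 organ differences.

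Leaving out 1 array at a time gave ranges in liver of 420 to 587 calls for Targretin (1 to 2 members), 203 to 279 for 9cRA (2 to 5) and 92 to 280 for 4HPR. In lung they were 0 to 460 for Targretin (0 to 1), 0 to 38 for 9cRA and 0 to 80 for 4HPR, and in mammary gland 338 to 1057 for Targretin (0 to 5) and 0 to 147 for 9cRA (0 to 1). Organ differences gave 1 to 4 members for Targretin, 1 to 82 calls for 9cRA (0 to 3) and 0 to 89 for 4HPR.

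Sign changes were limited to members that did not pass. With array weights they were, for 4HPR, Gstp1 rc_AI012589_s_at in liver (-0.0515) and Gstm1 J02810mRNA_s_at (-0.0141), H32189_s_at (0.143) and Gstt2 D10026_s_at (-0.13) in mammary gland, Gstm1 H32189_s_at in lung for Targretin (0.495) and 9cRA (0.28), and Gstt1 in mammary gland for 9cRA (0.214). Without the arrays that stood apart they were Gstp1 rc_AI012589_s_at (-0.05) and Gstt1 (-0.0758) in 4HPR liver and Gstm1 H32189_s_at in Targretin lung (0.331). Gstt2 D10026_s_at in mammary gland turned with quantile normalization for 9cRA (-0.014) and 4HPR (-0.0105), and with the block for 4HPR (-0.00584).

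Leaving out 1 array turned the following, given as ranges. In liver these were, for 9cRA, Gstp1 rc_AI012589_s_at (-0.0846 to 0.105) and Gstt2 D10026_s_at (-0.00414 to 0.228), and for 4HPR, Gstm1 J02810mRNA_s_at (-0.16 to 0.036), Gstm2 J02592_s_at (-0.163 to 0.00161) and Gstp1 rc_AI012589_s_at (-0.0841 to 0.127). In lung these were, for Targretin, Gstm1 H32189_s_at (-0.348 to 0.331), Gstp1 rc_AI012589_s_at (-2.08 to 0.225) and X02904cds_s_at (-0.0373 to 0.28), and for 9cRA, Gstm1 J02810mRNA_s_at (-0.196 to 0.0296) and H32189_s_at (-0.235 to 0.246). In mammary gland these were Gstm1 H32189_s_at for Targretin (-0.347 to 0.0592), Gstt1 (-0.232 to 0.287) and Gstt2 D10026_s_at (-0.0305 to 0.0827) for 9cRA, and for 4HPR, Gstm1 X04229cds_s_at (-0.152 to 0.411), J02810mRNA_s_at (-0.106 to 0.126) and H32189_s_at (-0.227 to 0.17), Gstt1 (-0.326 to 0.0689) and Gstt2 D10026_s_at (-0.0694 to 0.127).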
